A study of Mus musculus and Homo sapiens with 4 samples.

Results

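Collagen genes were examined in mouse embryonic fibroblasts (MEFs) of wild-type (WT) mice and of NEAT1 knockout (KO) mice. They were chosen by symbol, as the entries named Col, a number, the letter a and a number, which gave 43 of the 23329 entries in these libraries. This choice, like that of the gene lists used below, was made with earlier results of these data known. Both cultures were C57BL/6 fibroblast lines from E13.5 embryos, at passage 2 to 3, and each gave 1 library of poly-A RNA. The labels give neither the knockout allele nor the number of embryos behind a culture. The series also holds 2 libraries of human VCaP prostate cancer cells, which are not analysed here. NEAT1 is a long non-coding RNA on which nuclear bodies called paraspeckles are built. Its mouse gene Neat1 had 29.5 RPKM in WT and 2.01 RPKM in KO (reads scaled to transcript length and to the number of mapped reads), in the direction of the labels.

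Collagens are the main structural proteins of the extracellular matrix. Each collagen molecule is a helix of 3 polypeptide chains, which come from the same gene or from different genes depending on the collagen type. Fibrillar collagens such as types I, III and V assemble into the fibres that fibroblasts lay down around themselves. Type IV collagen forms the network of basement membranes, the thin sheets under epithelia and around vessels. FACIT collagens (fibril-associated collagens with interrupted helices) attach to the surface of fibrils. Other collagens form beaded filaments (type VI), hexagonal networks (types VIII and X), anchoring fibrils (type VII) or membrane proteins, or carry long sugar chains in basement membrane zones (types XV and XVIII).

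With 1 library per condition there was no spread between replicates and no test, so every difference below is one between these 2 cultures. A difference was expressed as the log2 ratio of the KO value plus 1 over the WT value plus 1, which understates the difference of entries with low values. An entry was called higher or lower when this ratio passed 1.5-fold, and only entries with a mean of at least 1 RPKM over both libraries were considered, which kept 23 of the 43 collagen entries and 11211 of all entries. In such bulk RNA, fewer cells of a type and less RNA per cell cannot be told apart.

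Marker lists of the cell types that such a culture could hold were compared first. All 10 fibroblast markers, which include Col1a1 and Col3a1, had at least 1 RPKM on average, among them Vim, the gene of the filament protein vimentin (3151 RPKM in WT and 2448 RPKM in KO), and Thy1, a fibroblast surface protein (153 RPKM and 220 RPKM). Of the 10, 4 (40%) were called higher in KO and 0 lower, and 7 log2 ratios were above 0 and 3 below. Over all entries considered, 4.4% were called higher and 4.77% lower, and 39.2% of the ratios were above 0. Lum and Dcn, genes of small proteoglycans that bind collagen fibrils, and Pdgfra, a growth factor receptor, were called higher together with Col3a1, with 7.98 and 33.0 RPKM, 19.8 and 64.0 RPKM, and 4.18 and 13.8 RPKM. Besides Vim, the ratios below 0 were those of the fibronectin gene Fn1 (765 and 517 RPKM, log2 ratio -0.56) and of S100a4 (249 and 206 RPKM), within 1.5-fold. The 6 endothelial, 6 epithelial and 4 Schwann cell markers summed to at most 1.15 RPKM in either library. The 6 macrophage markers summed to 19.4 RPKM in WT and 48.9 RPKM in KO. The 3 considered were all called higher, against 4.4% of all entries. They were Lyz2 (13.9 and 34.7 RPKM), Cd68 (2.79 and 7.26 RPKM) and Cd14 (1.67 and 4.73 RPKM). Under the minimum, Emr1 had 0.482 and 1.37 RPKM, Csf1r 0.521 and 0.775 RPKM, and the leukocyte gene Ptprc 0.0449 and 0.0813 RPKM. The 9 chondrocyte markers summed to 14.1 and 13.0 RPKM, almost all of it Sox9 and Comp, and the cartilage matrix gene Matn1 was listed at 0 in both. The 7 osteoblast markers summed to 10.2 and 7.27 RPKM, of which Sp7, a bone transcription factor, was called lower (2.85 and 1.31 RPKM), and Bglap was listed at 0 in both. Of 5 skeletal muscle markers only Acta1 passed 1 RPKM, with 12.6 RPKM in WT and 4.26 RPKM in KO. The part of these differences in the collagen values was not tested.

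On the RPKM as deposited, collagen transcripts as a group were more abundant in the KO library. Their RPKM values summed to 3666 in WT and 4696 in KO, which was 1.08% and 1.33% of the sum over all entries and 1.28 times as much in KO. The sum was not computed after quantile normalization, which lowered the ratios of the most abundant entries, Col1a1 and Col1a2 (below). Of the 23 entries considered, 4 were called higher in KO and 2 lower, and the other 17 lay within 1.5-fold. Over all 11211 entries the same rule called 4.4% higher and 4.77% lower, against 17.4% and 8.70% of the collagen entries. Past 2-fold, 2 collagen entries were higher and 0 lower, where 1.97% of all entries were higher and 0.651% lower. The median log2 ratio of the 23 entries was 0.28, with a range from -0.68 to 1.13, against -0.06 over all entries. The ratio was above 0 for 17 of the 23, against 39.2% of all entries. After quantile normalization of the libraries it was above 0 for 14 of the 23, against 45.4% of all entries, and after centring on the median for 17 of the 23, against 50.0%.

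**Figure D1:**
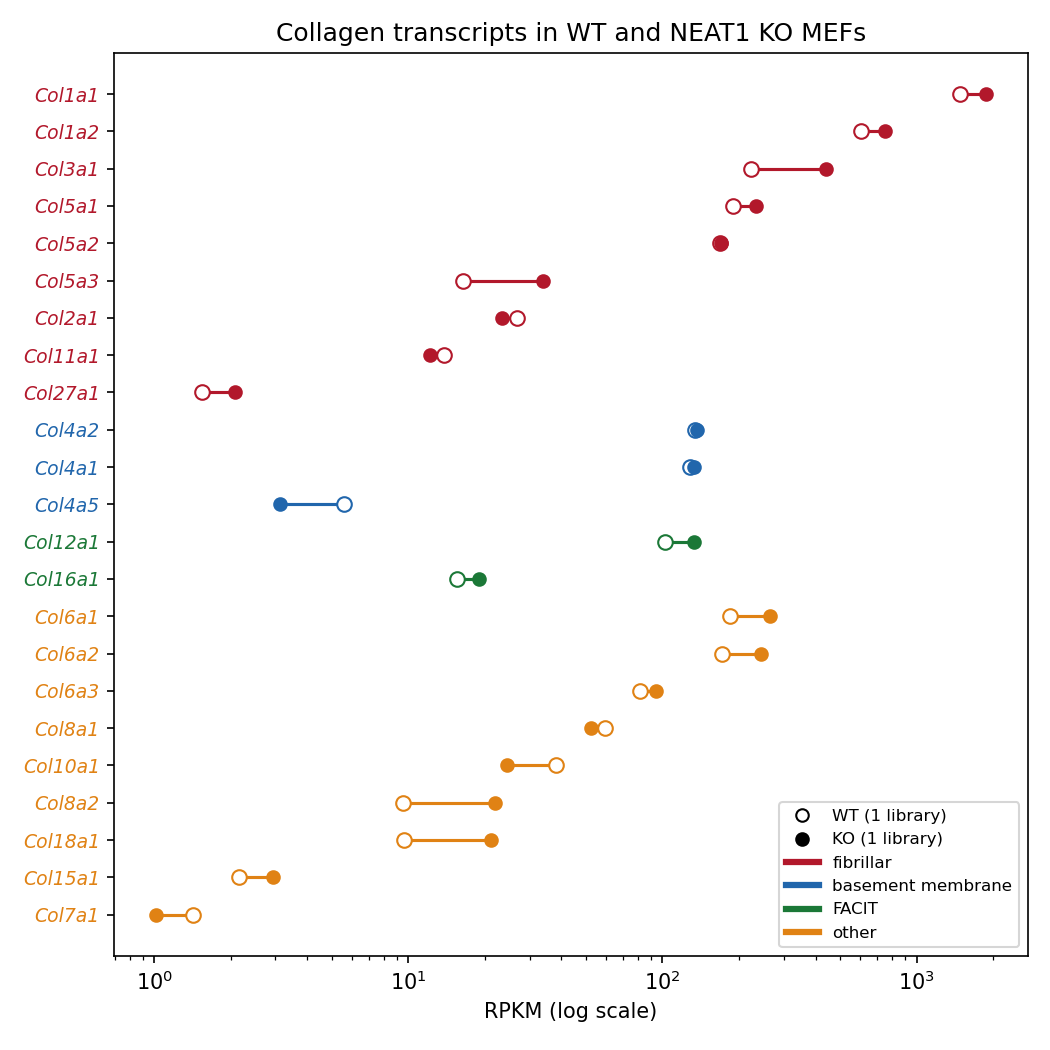
RPKM (log axis) of the 23 collagen entries with a mean of at least 1 RPKM, grouped by colour into fibrillar, basement membrane, FACIT and other collagens. Open circles are the WT library and filled circles the KO library, with no replicates and so no error bars; the widest gaps to the right are those of Col8a2, Col18a1, Col5a3 and Col3a1, and the widest to the left those of Col4a5 and Col10a1.

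Calls were also counted among well expressed entries alone. Of the 19 collagen entries with a mean of at least 10 RPKM, 4 were called higher and 1 lower, where 4.6% and 2.52% of the 5586 entries of that level were. Col1a1 and Col1a2, the most abundant collagens, lay inside the limits.

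**Figure D2:**
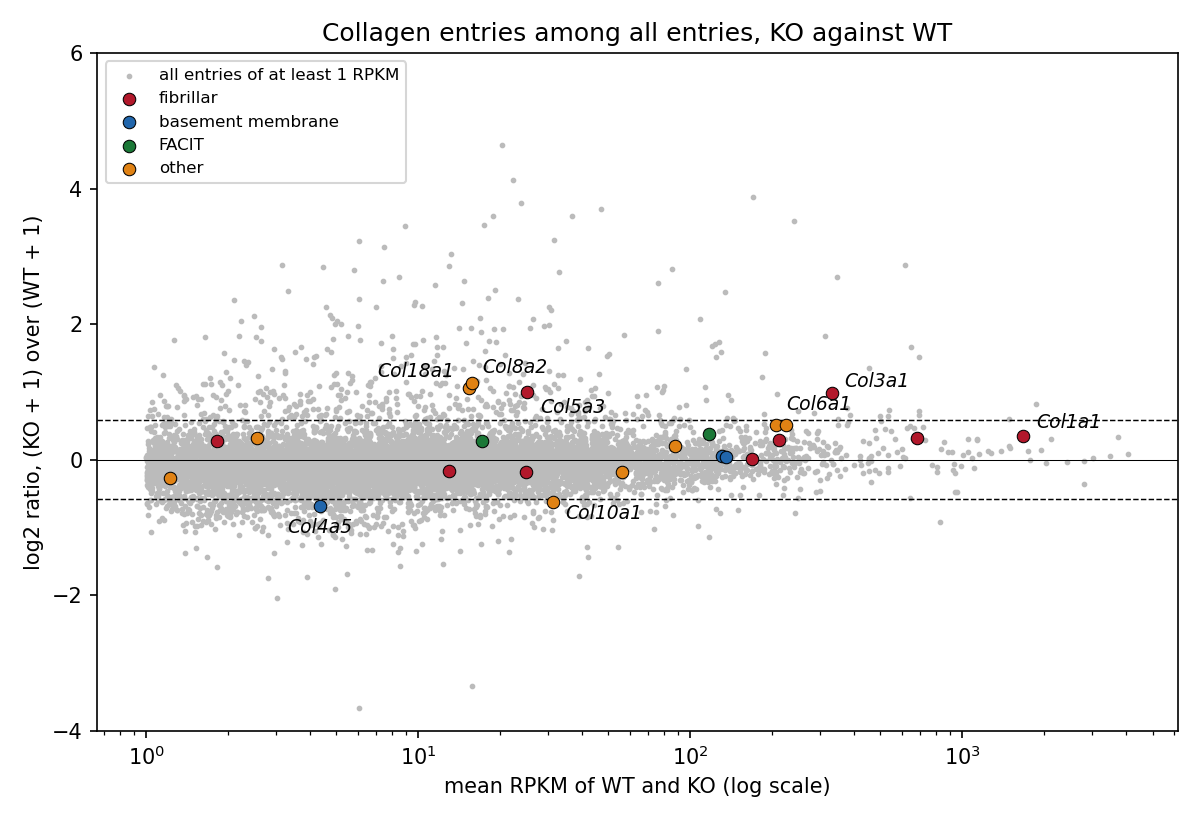
Log2 ratio of KO plus 1 over WT plus 1 against the mean RPKM of both libraries (log axis), with the 11211 entries as grey dots and the 23 collagen entries coloured by class. The vertical axis does not reach the lowest log2 ratio of all entries, -4.82, so not every grey dot is shown. Dashed lines mark 1.5-fold; 4 collagen entries lie above the upper line and 2 below the lower line.

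Fibrillar collagens made up most of the collagen RNA. Of 11 fibrillar entries 9 were considered, of which 2 were called higher (22.2%, against 4.4% of all entries) and 0 lower (against 4.77%). The median log2 ratio was 0.29, against -0.06 over all entries. Col1a1 and Col1a2 encode the chains of type I collagen, the main collagen of skin, tendon and bone. Col1a1 (chromosome 11, 94936270 to 94951856) had 1477 RPKM in WT and 1874 RPKM in KO, and ranked 13 and 12 among all 23329 entries. Col1a2 (chromosome 6, 4505697 to 4541543) had 605 RPKM and 753 RPKM. Their log2 ratios were 0.34 and 0.31, within 1.5-fold, and after quantile normalization that of Col1a1 was 0.11 while that of Col1a2 turned to -0.033. The direction of Col1a2 therefore depended on how the libraries were scaled.

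Col3a1 encodes the single chain of type III collagen, which forms mixed fibrils with type I in skin and vessel walls. Col3a1 (chromosome 1, 45311538 to 45349706) had 223 RPKM in WT and 442 RPKM in KO. This was 1.98 times the WT value, a log2 ratio of 0.98, and it stayed called at 0.80 after quantile normalization. By itself Col3a1 supplied 21.2% of the net difference in summed collagen RPKM as deposited, Col1a1 38.6% and Col1a2 14.4%. These shares were not computed after quantile normalization, which brought the log2 ratio of Col1a1 to 0.11 and that of Col1a2 to -0.033. Together, Col1a1, Col1a2 and Col3a1 held 62.9% of the collagen sum in WT and 65.3% in KO.

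The genes of type V collagen, a minor component that nucleates type I fibrils, did not move together. Col5a1 had 190 RPKM in WT and 232 RPKM in KO, and Col5a2 had 168 RPKM and 170 RPKM. Col5a3, the least abundant of them (chromosome 9, 20770050 to 20815034), had 16.5 RPKM and 33.8 RPKM, a log2 ratio of 0.99. Col5a3 was thus called higher, Col5a1 lay within the limit at 0.29, and Col5a2 was at 0.01, or -0.084 after quantile normalization. Col5a2 and Col3a1 lie 24624 bp apart on chromosome 1, and Col5a2 had nearly the same value in both libraries where Col3a1 did not.

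Fibrillar collagens of cartilage were present at lower levels. Col2a1, the gene of the main collagen of cartilage, had 26.7 RPKM in WT and 23.3 RPKM in KO, and Col11a1, which helps set the width of cartilage fibrils, had 13.8 RPKM and 12.2 RPKM. Both lay within 1.5-fold, at -0.18 and -0.17. Col27a1, a further fibrillar collagen, had 1.54 RPKM and 2.08 RPKM. Col11a2 and Col24a1 had at most 0.343 RPKM in either library.

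Basement membrane collagen was carried by Col4a1 and Col4a2, the chains of the type IV network found in nearly every basement membrane. Col4a1 had 128 RPKM in WT and 133 RPKM in KO, and Col4a2 had 134 RPKM and 137 RPKM. These log2 ratios, 0.05 and 0.04, were close to 0, and after quantile normalization they were 0.014 and 0. The entries of both genes lie head to head on chromosome 8 (11198423 to 11312826 and 11312829 to 11449287), 2 bp apart, and point away from each other. Col4a5 and Col4a6, a second such pair 1342 bp apart on chromosome X, encode chains of more specialised basement membranes. Col4a5 (141475419 to 141689235) was called lower, with 5.61 RPKM in WT and 3.13 RPKM in KO, which gave a log2 ratio of -0.68. Col4a6 had 0.311 RPKM and 0.127 RPKM, under the minimum. Col4a3 and Col4a4, the chains of the kidney glomerulus, were at most 0.0156 RPKM.

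Of the FACIT collagens 2 of 9 entries were considered and 0 were called, where 4.4% of all entries were called higher and 4.77% lower. Col12a1, which bridges type I fibrils in dense connective tissue, had 102 RPKM in WT and 133 RPKM in KO (log2 ratio 0.38), and Col16a1 had 15.5 RPKM and 19.0 RPKM (0.28). The other 7 entries, Col9a1, Col9a2, Col9a3, Col14a1, Col19a1, Col20a1 and Col22a1, had between 0.00258 and 0.794 RPKM. The highest of these was Col14a1, with 0.451 RPKM in WT and 0.794 RPKM in KO.

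Among the remaining collagens, type VI forms beaded filaments close to cells. Col6a1 had 185 RPKM in WT and 265 RPKM in KO, and Col6a2 had 171 RPKM and 243 RPKM. Their log2 ratios of 0.52 and 0.50 were close to each other and just inside the 1.5-fold limit of 0.58. Col6a3, the third chain, had 81.8 RPKM and 94.6 RPKM, a log2 ratio of 0.21. Col6a4, Col6a5 and Col6a6, which encode alternatives to that chain, were listed at 0 in both libraries.

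The short-chain collagens held entries called in both directions. Col8a2 (chromosome 4, 126286794 to 126314330) encodes a chain of type VIII collagen, known from the membrane beneath the corneal endothelium and from vessel walls. It had 9.53 RPKM in WT and 22.0 RPKM in KO, the largest log2 ratio of the 23 entries at 1.13. Its partner chain Col8a1 had 59.5 RPKM and 52.5 RPKM, a log2 ratio of -0.18. Col10a1 (chromosome 10, 34389981 to 34397085), the type X collagen of the hypertrophic zone of growth plates, was called lower, with 38.1 RPKM in WT and 24.4 RPKM in KO. Its log2 ratio of -0.62 was close to the limit, and centring on the median of all entries brought it inside at -0.56. Of the 2 osteoblast markers considered, Sp7 was called lower in KO (above). The other, Runx2, which acts in both hypertrophic cartilage and bone, had 6.91 RPKM and 5.55 RPKM, within 1.5-fold. The 2 chondrocyte markers considered, Sox9 (-0.06) and Comp (-0.19), were not called. A link between these markers and Col10a1 was not tested.

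Col18a1, whose C-terminal fragment is endostatin, had 9.60 RPKM in WT and 21.1 RPKM in KO (chromosome 10, 77052179 to 77166530), a log2 ratio of 1.06. The related Col15a1 had 2.16 RPKM and 2.93 RPKM, within the limit at 0.32. Col7a1, the collagen of the fibrils that anchor epidermis to dermis, had 1.42 RPKM and 1.02 RPKM, at -0.26. The transmembrane collagens Col17a1, Col23a1 and Col25a1 had at most 0.187 RPKM and Col13a1 was listed at 0 in both. Col28a1 had 0.401 RPKM and 0.334 RPKM.

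Ratios between chains within a library, taken from the RPKM as deposited, are not altered by multiplying a library by a constant, although quantile normalization can alter them. Type I collagen is built from 2 chains of Col1a1 and 1 chain of Col1a2, and the RPKM of Col1a1 was 2.44 times that of Col1a2 in WT and 2.49 times in KO. The ratio of Col4a1 to Col4a2 was 0.956 and 0.967, and that of Col6a1 to Col6a2 was 1.08 and 1.09. These 3 pairs differed between the libraries by at most 1.02-fold. Col6a3 stood at 0.443 of Col6a1 in WT and 0.357 in KO. The ratio of Col5a1 to Col5a2 was 1.13 and 1.37.

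Col3a1 stood at 0.151 of Col1a1 in WT and 0.236 in KO, a ratio 1.56 times as large in KO. Col8a1 exceeded Col8a2 by 6.25-fold in WT and by 2.38-fold in KO. The ratio of Col11a1 to Col11a2 (83.6 and 45.6), that of Col4a5 to Col4a6 (18.1 and 24.6) and that of Col9a2 to Col9a3 (3.18 and 3.84) each have a chain at or under 0.311 RPKM.

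**Figure D3:**
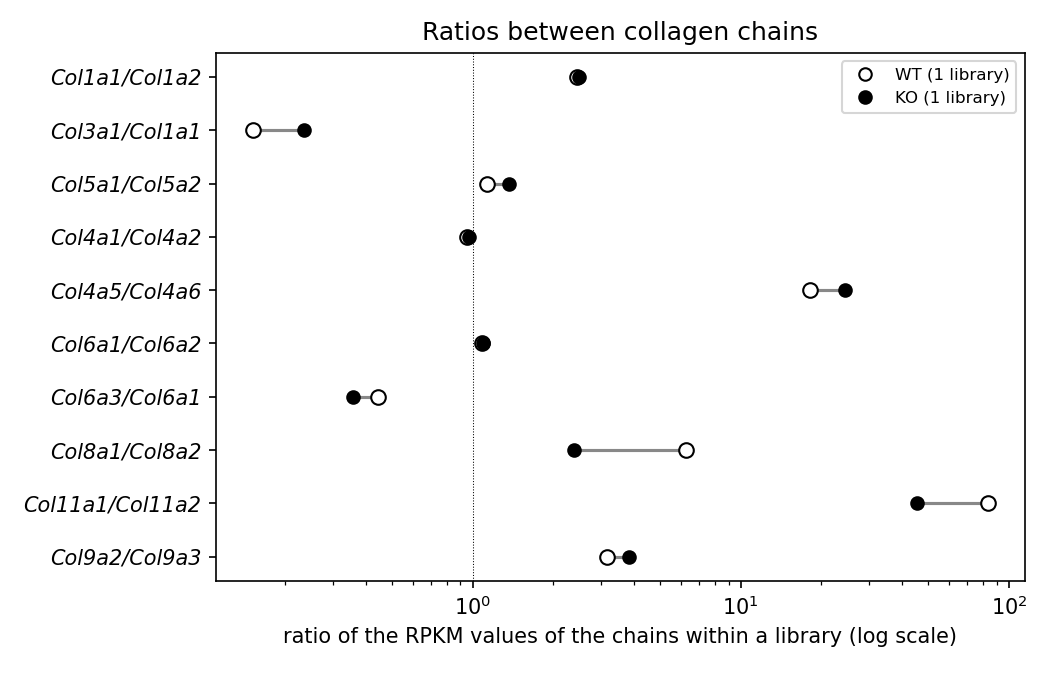
Ratio of the RPKM values of the chains of a pair within the same library (log axis), for 10 pairs of chains. Open circles are WT and filled circles KO, 1 library each; the pairs Col1a1/Col1a2, Col4a1/Col4a2 and Col6a1/Col6a2 nearly coincide, and Col8a1/Col8a2 moves from 6.25 to 2.38.

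The stretch of 250 bases before the transcript start is shown for 5 of the 6 called genes, so that the regions of genes higher and lower in KO can be read side by side. Sequences are those of RefSeq for GRCm38.p6, written 5′ to 3′ on the strand of the gene, and capitals mark TATAAA (the TATA box), CCAAT (the CCAAT box) and GGGCGG (the GC box) on either strand. Col18a1 has 2 annotated starts and is not shown. The first 3 genes were higher in KO and the last 2 lower.
Col8a2, chr4:126286544-126286793, plus strand: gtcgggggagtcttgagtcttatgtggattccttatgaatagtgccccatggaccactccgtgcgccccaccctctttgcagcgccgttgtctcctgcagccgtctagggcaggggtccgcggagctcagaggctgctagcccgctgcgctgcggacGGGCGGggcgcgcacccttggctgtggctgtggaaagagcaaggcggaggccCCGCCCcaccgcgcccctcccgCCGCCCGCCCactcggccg
Col5a3, chr9:20815068-20815317, minus strand: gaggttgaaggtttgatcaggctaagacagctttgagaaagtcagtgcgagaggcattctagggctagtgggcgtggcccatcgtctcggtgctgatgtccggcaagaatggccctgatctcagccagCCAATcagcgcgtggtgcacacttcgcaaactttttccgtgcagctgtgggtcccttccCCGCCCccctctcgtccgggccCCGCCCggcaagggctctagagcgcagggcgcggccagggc
Col3a1, chr1:45311288-45311537, plus strand: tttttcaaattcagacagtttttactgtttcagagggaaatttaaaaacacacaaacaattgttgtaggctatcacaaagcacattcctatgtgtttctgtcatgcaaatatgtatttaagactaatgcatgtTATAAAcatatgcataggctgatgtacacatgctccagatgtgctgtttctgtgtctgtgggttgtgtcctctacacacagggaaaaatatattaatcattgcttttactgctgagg
Col10a1, chr10:34389731-34389980, plus strand: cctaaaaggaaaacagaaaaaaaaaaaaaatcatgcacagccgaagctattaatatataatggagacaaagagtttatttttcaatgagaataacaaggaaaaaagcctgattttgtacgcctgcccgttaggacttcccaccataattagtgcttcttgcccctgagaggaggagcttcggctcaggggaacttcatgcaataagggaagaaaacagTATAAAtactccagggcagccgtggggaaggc
Col4a5, chrX:141475169-141475418, plus strand: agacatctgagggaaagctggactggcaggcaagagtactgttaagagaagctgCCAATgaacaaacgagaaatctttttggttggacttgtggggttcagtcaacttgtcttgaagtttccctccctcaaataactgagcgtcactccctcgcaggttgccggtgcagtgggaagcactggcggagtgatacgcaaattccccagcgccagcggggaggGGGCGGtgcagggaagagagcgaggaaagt

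The 5 regions differ in what they hold. Col8a2 has 4 GC boxes, of which the 2 nearest the start overlap, Col5a3 has a CCAAT box and 2 GC boxes, and Col4a5 has 1 of each. Col10a1 has TATAAA at position -32 from the start and Col3a1 at -117, and neither has a GC box. Genes higher in KO and genes lower in KO each came with more than 1 arrangement of these motifs. Of the 43 collagen genes 35 have RefSeq windows, 38 windows in all. GGGCGG occurs in 57.9% of these windows against 32.7% of all 32851 windows of the same length, CCAAT in 34.2% against 33.8%, and TATAAA in 13.2% against 12.4%. A match is a description of these letters and not of a bound factor.

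Genes that make collagen were described next, in lists drawn up by known role. The list of chain modification and folding holds 20 genes, of which 18 were considered, 3 were called higher (16.7%, against 4.4% of all entries) and 0 lower (against 4.77%). The median log2 ratio was 0.18, against -0.06 over all entries, and 17 of the 18 were above 0, against 39.2% of all entries. P4ha1 and P4ha2 encode catalytic subunits of the prolyl 4-hydroxylases, which stabilise the helix. P4ha2 had 48.5 RPKM in WT and 103 RPKM in KO, and P4ha1 had 53.9 RPKM and 85.3 RPKM, log2 ratios of 1.06 and 0.65. Plod1, a lysyl hydroxylase needed for stable crosslinks, had 28.0 RPKM and 45.0 RPKM, at 0.67. P4ha3 stayed within the limit, with 41.4 RPKM and 46.5 RPKM. The most abundant genes of the list were Serpinh1, the collagen chaperone HSP47 (1408 and 1580 RPKM), Hspa5, the chaperone BiP of the endoplasmic reticulum (533 and 751 RPKM), and P4hb, the shared beta subunit of the prolyl 4-hydroxylases (481 and 539 RPKM), all within 1.5-fold.

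The list of secretion, cleavage and crosslinking holds 18 genes, of which 16 were considered, 0 were called higher and 1 lower, with a median log2 ratio of 0.09. The 1 gene is 6.25% of the list, near the 4.77% of all entries called lower, and 4.4% of all entries were called higher. The lower one was Tll1, a protease of the BMP1 family that trims procollagen, with 25.1 RPKM in WT and 12.3 RPKM in KO (log2 ratio -0.98), whereas Bmp1 itself had 35.2 RPKM and 43.3 RPKM. Adamts2, which removes the N-terminal propeptide, was at 0.58 (11.6 and 17.8 RPKM), just inside the limit. The most abundant were Sparc, a collagen-binding matrix protein (1383 and 1597 RPKM), Lox, the crosslinking enzyme lysyl oxidase (1013 and 1255 RPKM), and Pcolce, an enhancer of propeptide cleavage (414 and 428 RPKM).

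Of 10 collagen-binding receptors 6 were considered, 1 was called higher and 0 lower, where 4.4% and 4.77% of all entries were, with a median log2 ratio of -0.07. The higher one was Itga11, which pairs with integrin beta 1 to bind fibrillar collagen, with 43.9 RPKM in WT and 71.1 RPKM in KO (0.68). Itgb1, the gene of that beta chain, went the other way within the limit, with 348 RPKM and 252 RPKM (-0.46). Mrc2, the uptake receptor for collagen fragments, had 67.6 RPKM and 81.8 RPKM, and the collagen receptor kinases Ddr1 and Ddr2 lay between -0.31 and -0.18.

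Of 19 regulators of collagen transcription all were considered, 2 were called higher (10.5%, against 4.4% of all entries) and 0 lower (against 4.77%), with a median log2 ratio of 0.03. Creb3l1, a membrane-bound transcription factor known to drive type I collagen genes in osteoblasts, had 70.3 RPKM in WT and 123 RPKM in KO (0.80). Cebpb, a transcription factor of inflammation and differentiation, had 3.15 RPKM and 8.09 RPKM (1.13). The most abundant were Ctgf (1851 and 2050 RPKM) and Tgfb3 (129 and 105 RPKM), and Tgfb1, the classic inducer of collagen in fibroblasts, had 63.4 RPKM and 92.7 RPKM, a log2 ratio of 0.54 inside the limit, which centring on the median of all entries brought past it. The receptor and Smad genes of this pathway (Tgfbr1, Tgfbr2, Smad2, Smad3, Smad4 and Smad7) lay between -0.17 and 0.16.

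**Figure D4:**
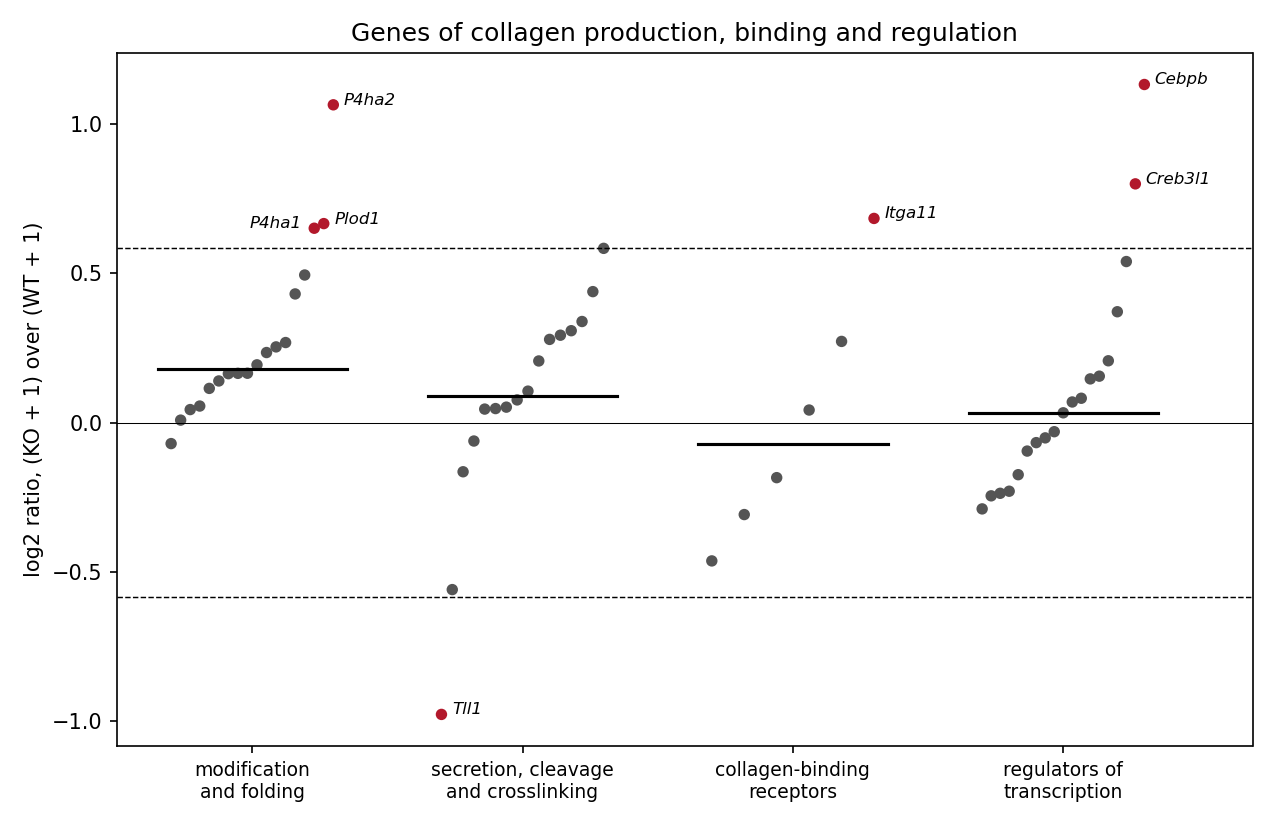
Log2 ratio of KO plus 1 over WT plus 1 for each gene with a mean of at least 1 RPKM in 4 lists: 18 genes of modification and folding, 16 of secretion, cleavage and crosslinking, 6 receptors and 19 regulators. Black bars are medians, dashed lines mark 1.5-fold and red points are the 7 genes past it, 6 of them higher in KO and Tll1 lower.

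How many reads stand behind a value is not stated. Multiplying RPKM by transcript length gave values that recurred at 31.9 in WT and at 33.8 in KO, so that the same number of reads was worth 1.06 times as much RPKM in KO. If this commonest step is 1 sequenced fragment, Col3a1 rests on about 38864 fragments in WT and 72682 in KO, and Col8a2 on about 1294 and 2821. On the same footing Col9a1, Col4a3, Col4a4 and Col22a1 rest on at most 3.96 fragments in either library, and no direction was read from their values. Values also recurred at a smaller step, within 2% of it for 120 entries in WT and 129 in KO, against 295 and 318 at the commonest step. Counted on that smaller step, the figures would be larger. The steps rest on lengths of another annotation (GENCODE M21), so these figures are estimates and say nothing of the difference between cultures.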

How the data were processed

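MEFs of WT and NEAT1 KO mice were profiled by poly-A RNA sequencing, 1 library each. The authors deposited 1 RPKM value per RefSeq entry. Per the labels, the processing notes name CASAVA 1.8 and mm10, with no role given; the aligner, the counting rule and any scaling between libraries are not given in the sources used here. Coordinates matched GRCm38, with all 43 collagen entries on the same chromosome as in RefSeq, and are printed counted from 1.

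Log2 ratios were computed from RPKM plus 1 without further scaling. Entries with a mean of at least 1 RPKM were considered and those past 1.5-fold called. No test was possible with 1 library per condition. The named genes were every collagen entry of at least 1 RPKM and, of the other lists, those past 1.5-fold and the 3 most abundant; further genes of these lists were named after their values were seen. The members and lists were chosen with earlier results of these data known. Alternatives were a pseudocount of 0.1, no minimum, median centring, quantile normalization, 1 entry per symbol, chain ratios of RPKM plus 1, the collagen share without the 10 highest other entries and, added after seeing the data, a minimum of 10 RPKM. A planned description of the protein chains was not made here. The calling was tested on simulated data, with changes larger than 1.5-fold, an assumed read depth and no variation between cultures. That test therefore does not tell how reliable a 1.5-fold call is here. The number of reads per library is unknown, so no interval is given. Computation ran in Python 3.11.15 with pandas 2.3.3 and numpy 2.4.6, and plots in matplotlib 3.10.9.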

Additional observations from a re-analysis of the deposited data

How the results depend on the processing

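The 4 collagen entries called higher kept that count under every alternative run, and 2 of 23 log2 ratios changed sign, both under quantile normalization: Col1a2 to -0.033 and Col5a2 to -0.084. Only quantile normalization could have lowered the ratios of these 4 entries. A minimum of 10 RPKM can leave entries out, but all 4 had higher means. The other alternatives raised the ratios of these 4 entries or left them as they were. The entries called lower numbered 1 after centring, which moved Col10a1 inside the limit, and 1 with a minimum of 10 RPKM, which leaves out Col4a5. Without a minimum, entries at or near 0 enter, and the median log2 ratio was 0.016 for all 43 collagen entries, -0.00021 for type IV, 0.016 for FACIT and 0.10 for type VI. Quantile normalization gave a fibrillar median of 0.11, and called 1 receptor lower. A minimum of 10 RPKM gave a median of 1.06 for types XV and XVIII (Col18a1 alone), 0.21 for secretion, cleavage and crosslinking and -0.18 for receptors, and left 1 regulator called higher, against 3 after centring and 2 as reported. With a pseudocount of 0.1 the log2 ratio of Col7a1, the entry considered among type VII and remaining collagens, was -0.45. For secretion, cleavage and crosslinking, 1 gene was called higher with a pseudocount of 0.1, after centring and after quantile normalization, and 2 lower with the pseudocount of 0.1. The shares of all entries called moved as well. They were 5.33% higher and 7.44% lower with the pseudocount of 0.1, and 5.05% and 3.63% after centring. After quantile normalization they were 4.76% and 3.81%, and with a minimum of 10 RPKM 4.6% and 2.52%. Adding 1 RPKM to both chains turned the KO ratio of Col4a5 to Col4a6 over that in WT from 1.36 to 0.73, and that of Col11a1 to Col11a2 moved from 0.54 to 0.82. No paired analysis was possible because each condition has 1 library, and for the same reason no library could be left out. Differences between cultures and between genotypes cannot be told apart.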

Other observations

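The type XXVI collagen gene stands in the files under its older symbol Emid2, so that the choice by symbol does not take it; it was listed at 0 in WT and had 0.0210 RPKM in KO. Col4a3bp, whose symbol begins like that of a collagen but which encodes a lipid transfer protein, was left out for the opposite reason; it had 7.89 RPKM in WT and 5.08 RPKM in KO, which gave a log2 ratio of -0.55.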
